A study of Mus musculus with 24 samples.

Results

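The resting brown fat of wild-type mice was described from the 6 libraries whose labels give the genotype C57Bl/6J and saline, out of 24 libraries in a series on chemogenetic activation of the sympathetic neurons that supply this depot. Each library holds polyadenylated RNA from the interscapular brown adipose tissue of 1 mouse aged 6 to 8 months, taken 30 minutes after saline. Mice 7, 9 and 11 are male and mice 2, 8 and 12 female, and no other difference between them is labelled. These mice carry no Cre per their labels, and whether they also received a vector is not given in the sources used here. No treatment was compared: the question was what the tissue's messenger RNA consists of and which genes differ from mouse to mouse. The other 18 libraries (wild-type mice given the designer-receptor ligand DCZ, and Th-Cre mice given saline or DCZ, 6 of each) served only to see whether a spread or a sex difference recurred.

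Brown adipocytes burn fatty acids in mitochondria whose inner membrane holds uncoupling protein 1, so that the respiratory chain releases heat in place of making ATP. Noradrenaline from sympathetic nerves starts this through beta-adrenergic receptors, cAMP and the breakdown of stored triglyceride, and the cells refill their droplets by taking up fatty acids and by making them from glucose. Mitochondrial DNA encodes 13 proteins of the respiratory chain and ATP synthase, and all other subunits come from nuclear genes.

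The libraries held 13158457 (mouse 8) to 18791082 (mouse 11) estimated counts, with reads on 15802 to 17418 genes each. The brown fat label was borne out by its markers: Ucp1 averaged 4777 ± 785 (SD, n = 6) in counts-per-million (CPM), Cidea, a lipid droplet protein of brown fat, 1628 ± 138, Fabp4, a fatty acid carrier of adipocytes, 6674 ± 716, and the adipocyte hormone gene Adipoq 730 ± 30.2. Transcripts of the Y-linked Eif2s3y matched the labelled sex of all 6 mice. A pair of libraries stood apart. In mouse 12 skeletal muscle markers summed to 0.0407% of counts, against 0.00706 to 0.00872% in the other 5. In mouse 2 levels moved with transcript length: its genes of up to 1873 bases had a median deviation of -0.12 on the log2 scale from the mean of the 6 mice and its genes of at least 4472 bases 0.10, with Spearman's rho 0.31 across 9392 genes, against -0.14 to 0.01 in the other mice.

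Messenger RNAs encoded by mitochondrial DNA took 37.4% ± 1.73 (SD, n = 6) of all counts. The share was 36.8% in mouse 2, 35.6% in mouse 7, 36.9% in mouse 8, 37.7% in mouse 9, 36.6% in mouse 11 and 40.6% in mouse 12. Mouse 12, the library with muscle transcripts, was thus the highest, and the mean without it was 36.7%. The mt-Co1 mRNA, for the catalytic subunit of cytochrome c oxidase, was the most abundant of all genes in CPM. It reached 87676 CPM in mouse 2, 85105 in mouse 7, 79400 in mouse 8, 91147 in mouse 9, 86419 in mouse 11 and 84054 in mouse 12, an SD of 0.07 on the log2 scale. By counts it was followed by the ATP synthase subunit mt-Atp6 (48158 CPM ± 4948), mt-Cytb of complex III (45869 ± 3347), and mt-Co3 (44982 ± 6560) and mt-Co2 (44461 ± 7420) of complex IV.

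Levels of different genes were compared per length, as counts divided by the length of the gene's principal transcript and scaled so that all genes have the same sum as in CPM. On that scale, with nuclear copies counted apart, mt-Atp6 came first of all genes at 89434 ± 3916, mt-Co2 had 82001 ± 8902, mt-Co3 72468 ± 6951 and mt-Co1 70435 ± 5042. The complex I subunits were lower and less even, from mt-Nd1 at 34520 ± 2511 to mt-Nd5 at 7452 ± 2004. The only subunit encoded on the light strand, mt-Nd6, had 553 ± 71.6 per length. These libraries hold polyadenylated RNA, and how much of each mRNA carries a poly(A) tail was not measured. Of the shortest genes mt-Atp8, of 204 bases, had 39308 ± 6527 per length and mt-Nd4l, of 297 bases, 9013 ± 2235. Genes that share an mRNA were not joined, and the error of this scale for short genes was not tested. Per length the 13 mitochondrial genes took 53.2% of the transcriptome. The mRNAs that varied most between mice were mt-Nd5, with an SD of 0.31 on the log2 scale and 15847 CPM in mouse 2 against 8950 to 10682 in the others, and mt-Nd3, with an SD of 0.30.

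The seventh gene by counts was a nuclear pseudogene, Gm29216 (chromosome 1, 24615706 to 24616197, minus strand, GRCm38), which is a copy of the end of mt-Co1. It held 2.68% of all counts, with 1.53% in mouse 2, 2.25% in mouse 7, 2.57% in mouse 8, 3.26% in mouse 9, 2.94% in mouse 11 and 3.54% in mouse 12. Aligned without gaps, its 492 bases differ from mt-Co1 at 6 positions, all within the first 13, and the 479 bases after them are identical. The first 60 bases of each are shown here because they hold every difference, marked in capitals (GENCODE M21 transcripts, bases 1 to 60 of the pseudogene and 1054 to 1113 of mt-Co1).
Gm29216: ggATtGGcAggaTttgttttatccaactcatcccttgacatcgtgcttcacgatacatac
mt-Co1: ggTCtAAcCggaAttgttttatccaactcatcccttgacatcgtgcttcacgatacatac
Reads from the identical stretch cannot be told apart, so these counts were read as shared with mt-Co1. With its counts added to mt-Co1, an alternative chosen after seeing the data, mt-Co1 came first per length at 96853 ± 5453 and mt-Atp6 second at 93861 ± 4927, less than 1 SD apart. With all near-identical nuclear copies added, mitochondrial mRNAs came to 40.1% ± 2.28 (SD, n = 6). On the same chromosome Gm10925, an exact copy of mt-Atp6, and Gm28437, an exact copy of mt-Co3, were listed at 0 reads in all 6 mice.

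**Figure D1:**
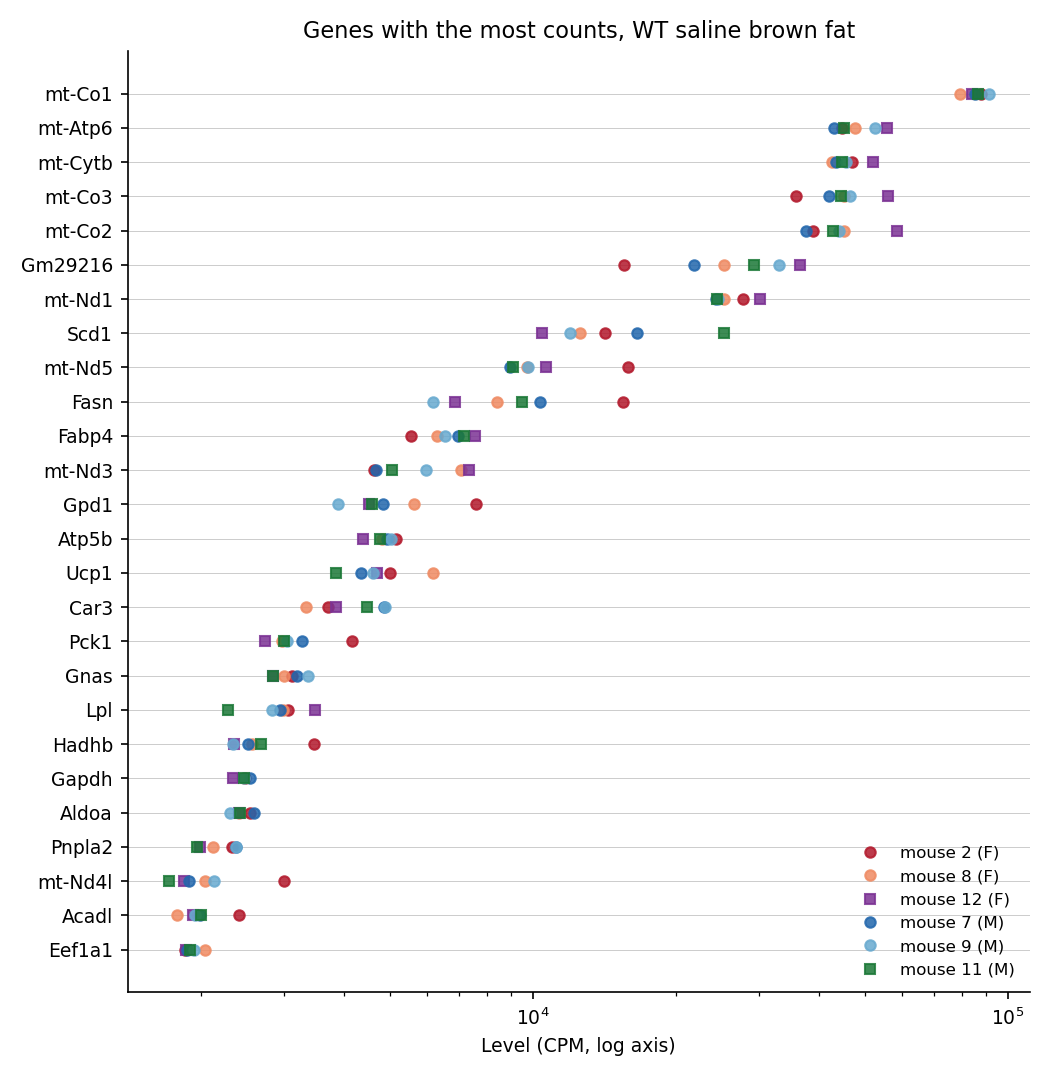
Level of 26 of the 33 genes with the most counts, those named in the text (x axis, CPM on a log axis) in each of the 6 WT saline mice, 1 point per mouse, circles and squares coloured by mouse with the sex in brackets. Mitochondrial mRNAs fill the top, and the fatty acid synthesis genes Scd1 and Fasn spread more between mice than Gapdh, Aldoa or Eef1a1.

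Counts were concentrated on few genes. The 10 most abundant genes took 39.1% ± 2.15 (SD, n = 6), from 36.6% in mouse 2 to 42.6% in mouse 12, the 100 most abundant 56.4% ± 1.09, and the 1000 most abundant 76.6% ± 0.502. On mean levels 42 genes held 50% of the counts, with 26 in mouse 12 and 40 to 50 in the other mice. With the mitochondrial mRNAs and their copies set aside the nuclear transcriptome was much flatter: its 10 leading genes took 10.2% ± 1.14 and 487 genes held 50%. Of the 36144 genes listed, 11984 reached a mean of 1 CPM, 979 reached 100, 70 reached 1000 and 11 reached 10000.

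The leading nuclear genes by counts belong to fat synthesis, fat handling and oxidative metabolism. Scd1, the desaturase that makes oleate, led with 15151 CPM ± 5347 (SD, n = 6), and Fasn, the fatty acid synthase, had 9458 ± 3330. Fabp4 came next, then Gpd1 at 5166 ± 1312, which makes glycerol 3-phosphate, the ATP synthase beta subunit gene Atp5b at 4848 ± 265, and Ucp1. The carbonic anhydrase gene Car3 (4181 CPM ± 650), Pck1 (3190 ± 504), an enzyme of glycerol formation in fat, and Gnas (3052 ± 208), the stimulatory G protein of adrenergic receptors, followed. Lpl, the lipase that frees fatty acids from lipoproteins, had 2926 CPM ± 386. Per length the order of nuclear genes changed, because Scd1 and Fasn have long transcripts: Fabp4 led with 9443 ± 906, and Scd1 had 4021 ± 1536, Ucp1 3709 ± 641, Atp5b 3222 ± 325, the acyl-CoA binding protein gene Dbi 3198 ± 450, Car3 3168 ± 548 and Cox8b, a subunit of cytochrome c oxidase, 2796 ± 521. In this order Ucp1 and Atp5b differed by more than the SD of Atp5b, and each other pair of neighbours from Scd1 to Cox8b by less than either SD.

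Summed by pathway, nuclear subunits of oxidative phosphorylation took 4.38% of counts ± 0.238 (SD, n = 6), spread over 82 genes at a mean of at least 5 CPM. Complex V had 1.27% ± 0.0517, complex I 1.23% ± 0.0835, complex IV 0.895% ± 0.0948, complex III 0.627% ± 0.0359 and complex II 0.361% ± 0.0340. Mouse 2 was lowest in the sum of the 5 complexes, at 4.02% against 4.20 to 4.59%, and in complex IV, at 0.725% against 0.871 to 0.978%. In that mouse 59 of the 82 genes were at their lowest, where 25.7% of all genes were, and the part of transcript length in this was not tested. The citrate cycle with pyruvate dehydrogenase took 2.29% ± 0.271, mitochondrial fatty acid oxidation 2.22% ± 0.195, fatty acid uptake and carriers 1.54% ± 0.108, glycolysis and glucose uptake 1.35% ± 0.105, and triglyceride synthesis 1.29% ± 0.202. The 16 genes of fatty acid synthesis alone took 3.15% ± 0.827. Cytosolic ribosomal proteins, 81 genes at 5 CPM or more, took 1.10% ± 0.137, with 0.854% in mouse 2 and 1.05 to 1.24% in the others. Thermogenic effectors, Ucp1 included, took 0.936% ± 0.0965 and adrenergic and cAMP signalling 0.583% ± 0.0387.

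**Figure D2:**
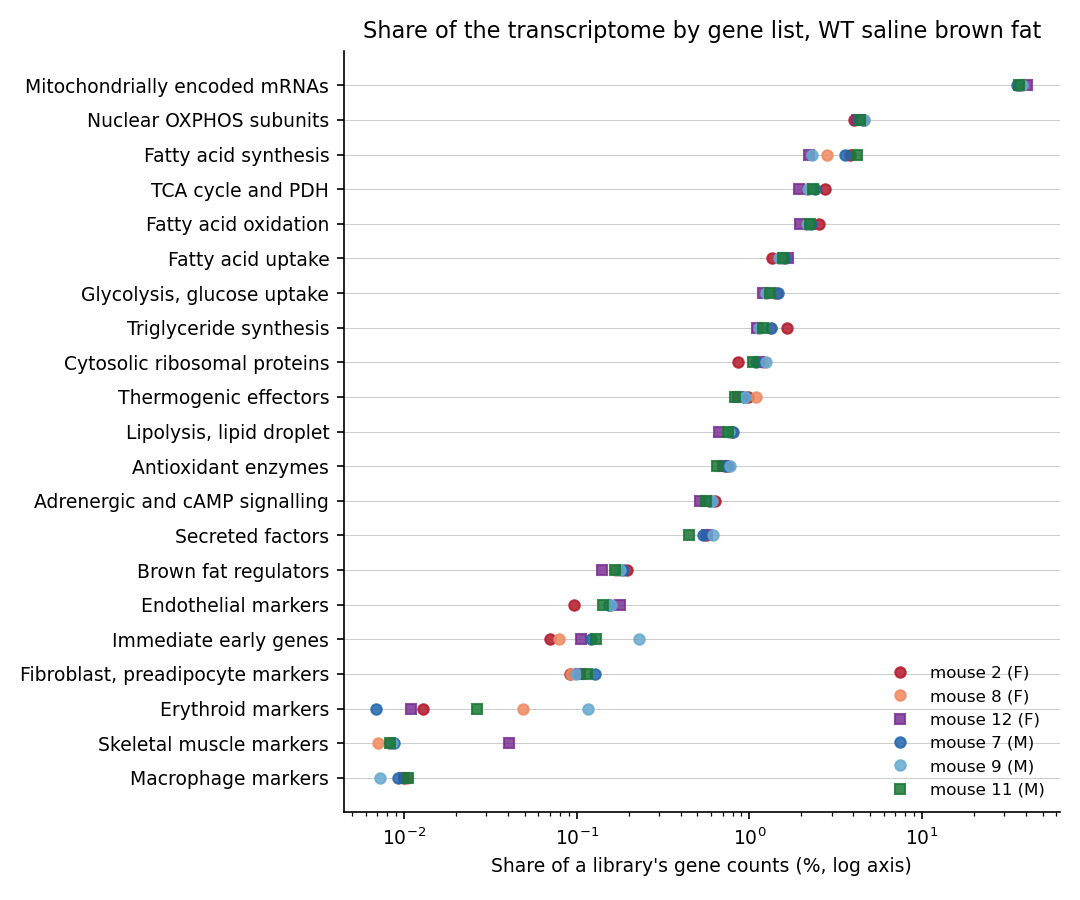
Share of each library's gene counts (x axis, percent on a log axis) taken by 21 gene lists, 1 point per WT saline mouse. Most pathway shares lie close together, whereas fatty acid synthesis, erythroid, muscle and immediate early lists spread over the mice.

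Ucp1 varied somewhat more than the median gene at 5 CPM or more, whose SD was 0.17 on the log2 scale. It had 5012 CPM in mouse 2, 4348 in mouse 7, 6168 in mouse 8, 4598 in mouse 9, 3847 in mouse 11 and 4687 in mouse 12, with an SD of 0.23. The highest and the lowest mouse, 8 and 11, differed 1.60-fold. Cidea had an SD of 0.12, Cox7a1 of 0.18 and Cox8b of 0.25, the last pair being heart and brown fat forms of cytochrome c oxidase subunits. The proton channel gene Otop1 stood at 231 CPM in mouse 2 and at 144 to 174 in the others. Dio2, the deiodinase that activates thyroid hormone in brown fat, lay between 64.9 and 116 CPM with an SD of 0.34. Elovl3, a cold-responsive fatty acid elongase, had the largest SD of the 14 genes, 0.68: 125 CPM in mouse 2, 51.8 in mouse 7, 133 in mouse 8, 66.1 in mouse 9, 43.8 in mouse 11 and 109 in mouse 12. All 3 females lay above all 3 males, and in 14.1% of all genes tested for sex the sexes did not overlap.

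For several proteins the tissue used mainly 1 gene of a family, measured per length. Ucp1 made up 96.7% ± 0.574 (SD, n = 6) of the 3 uncoupling proteins, Ucp3 3.03% ± 0.553 and Ucp2 0.249% ± 0.0606. The muscle form of carnitine palmitoyltransferase, Cpt1b, made up 98.8% ± 0.134 of its pair, the insulin-responsive glucose transporter Slc2a4 98.0% ± 0.430 and Scd1 99.6% ± 0.148. Fabp4 made up 89.0% ± 0.896 of 3 fatty acid binding proteins and Dgat2 83.8% ± 1.99 of the 2 enzymes that complete triglyceride. Of 5 adrenergic receptors the beta3 receptor Adrb3 made up 75% ± 5.01, Adra1a 11.2% ± 3.08 and Adrb1 8.76% ± 1.69. The regulatory subunit gene Prkar2b made up 88.1% ± 1.14 of protein kinase A regulatory subunits. Others were mixed: Cox7a1 57.2% ± 1.26 and Cox8b 59.7% ± 2.30 of their families, and Ldha 58.8% ± 1.65 against Ldhb 41.2% ± 1.65. Each share rests on 1 transcript length per gene.

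The lipid genes split into an even and an uneven set. Of 15 genes of lipolysis and the droplet surface the lipase inhibitor gene G0s2 had the largest SD, 0.52, and most were steadier. Pnpla2, the first triglyceride lipase, averaged 2190 CPM ± 190 (SD, n = 6), the hormone-sensitive lipase gene Lipe 997 ± 128, the droplet coat gene Plin1 847 ± 85.8 and Cidec 773 ± 40.4. The fatty acid transporter gene Cd36 had 1540 ± 111. Fatty acid synthesis was less even. Its summed share was 3.83% in mouse 2, 3.58% in mouse 7, 2.81% in mouse 8, 2.29% in mouse 9, 4.18% in mouse 11 and 2.22% in mouse 12. In this sum mice 2, 7 and 11 were high and mice 9 and 12 low, and both sexes occurred on each side. Acly, which supplies cytosolic acetyl-CoA, had an SD of 0.69: 1342 CPM in mouse 2, 1182 in mouse 7, 639 in mouse 8, 393 in mouse 9, 832 in mouse 11 and 511 in mouse 12. Fasn ran from 6171 CPM in mouse 9 to 15451 in mouse 2 and Acaca, acetyl-CoA carboxylase, from 728 to 2050 in the same mice. Of the 16 genes 12 were lowest in mouse 9 and 8 highest in mouse 2, where 17.2% and 28.8% of all 9409 genes at 5 CPM or more had that place. Scd1 had another order, with 25200 CPM in mouse 11 and 10444 in mouse 12. In mouse 11 Scd1 thus made up most of the list's sum, which was 41815 CPM by total counts. Fasn and Acaca have long transcripts, and the part of the length pattern of mouse 2 in its high values was not tested.

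Secreted factors and regulators were present at lower levels. Cfd, the complement factor D or adipsin gene, averaged 1315 CPM ± 375 (SD, n = 6), with 684 in mouse 11 and 1069 to 1709 in the others. Apoe had 665 ± 146, C3 660 ± 224 and Vegfa 542 ± 46.1. Lep, the leptin gene typical of white fat, had 3.55 to 15.1 CPM, and the 14 white adipocyte markers listed in the table together took 0.0120% of counts ± 0.00227. Of the regulators Cebpa had 479 CPM ± 87.6, Cebpb 270 ± 53.0, Pparg 184 ± 18.1, and the coactivators Ppargc1b 63.9 ± 11 and Ppargc1a 33.2 ± 5.75. The antioxidant selenoproteins Gpx3 (1878 CPM ± 421) and Gpx4 (1096 ± 136) and the ferritin heavy chain gene Fth1 (1681 ± 100) exceeded all of these regulators in counts.

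Markers of other cell types were low against those of adipocytes, and in whole tissue fewer cells of a type and less RNA per cell cannot be told apart. Endothelial markers (14 genes) took 0.147% of counts ± 0.0278 (SD, n = 6), fibroblast and preadipocyte markers 0.105% ± 0.0139, smooth muscle and pericyte markers 0.0794% ± 0.00786, Schwann cell markers 0.0165% ± 0.00202 and macrophage markers 0.00956% ± 0.00123. The endothelial share was 0.0961% in mouse 2 and 0.143 to 0.179% in the other mice. All 14 endothelial markers were lowest in mouse 2, Kdr at 170 CPM against 220 to 321 and Cdh5 at 147 against 193 to 272, where 25.7% of all genes were lowest in that mouse. Of 81 ribosomal protein genes 77 were also lowest there, and the part of transcript length in either was not tested. The noradrenaline synthesis gene Th gave no read in any of the 6 libraries, a count that allows 0.160 to 0.228 CPM, and 10 markers of sympathetic neurons summed to 7.02e-05% of counts.

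Between mice most genes differed little. Over 9409 genes with a mean of at least 5 CPM the SD of log2(CPM + 0.5) had a median of 0.17, where counting alone would give 0.08. The SD of 5% of genes exceeded 0.40 and that of 1% exceeded 0.69. The steadiest of the 2231 genes at 50 CPM or more was Laptm4a, a lysosomal membrane protein gene, at 181 to 189 CPM and an SD of 0.02. Prrc2b and the ubiquitin-conjugating enzyme gene Ube2d3 were as steady, with 0.02 and 0.03, and so were the glycolytic gene Tpi1 and the respiratory genes Ndufa9 and Atp5c1 with 0.03. Counting alone would give 0.026 for Laptm4a, 0.049 for Prrc2b and 0.027 for Ube2d3. The order of these genes is thus not resolved. Gapdh, a usual reference gene, had an SD of 0.04. In the other 3 groups its SD was 0.40, 0.21 and 0.37, where Laptm4a had 0.06, 0.05 and 0.10.

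**Figure D3:**
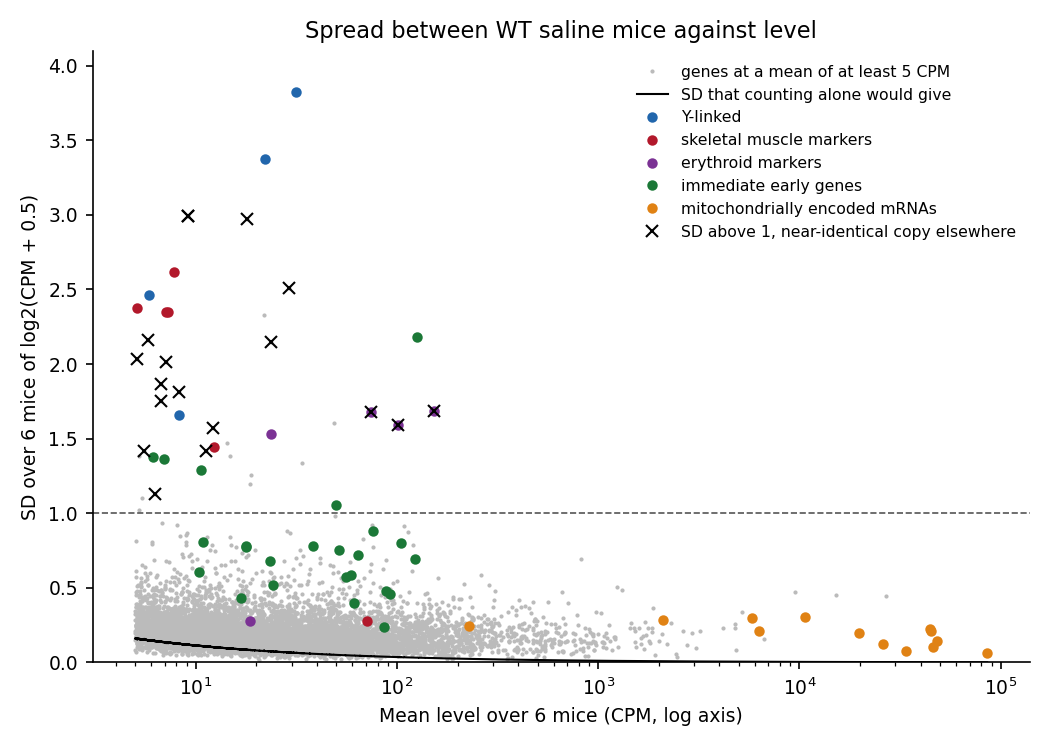
SD over the 6 WT saline mice of log2(CPM + 0.5) (y axis) against mean CPM (x axis, log axis) for 9409 genes, 1 point per gene. The black line is the SD counting alone would give, the dashed line an SD of 1, and crosses mark genes past it that have a near-identical copy. The mitochondrial mRNAs have SDs of 0.31 or less and, except mt-Nd6, lie at the right, and 43 genes lie above the dashed line.

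An SD above 1 was reached by 43 genes, 0.457% of those at 5 CPM or more. Of these 18 have a near-identical transcript elsewhere (at least 95% identity over at least 50% of the length), among which estimated counts can move. Gm10359 and Gm12671, pseudogenes identical in sequence to part of the Gapdh mRNA, both had 31.5 CPM in mouse 2, 23.2 in mouse 7 and none in the others. Eif4a-ps4, a copy of the translation factor gene Eif4a1, had 24.6 CPM in mouse 2 and 0 to 4.85 in the others, while Eif4a1 had 175 in mouse 2 and 202 to 225. Gm45837, a longer model over Pde2a, was 0 in mice 7 and 9, and Pde2a had 90.7 and 99 there against 37.4 in mouse 2 and 44.1 in mouse 11. These genes were set aside as uncertain, and 25 without such a copy by this search remained. Hbb-bt is among the 25, although 84.6% of the Hbb-bs transcript is identical to it, so its counts are uncertain too.

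**Figure D4:**
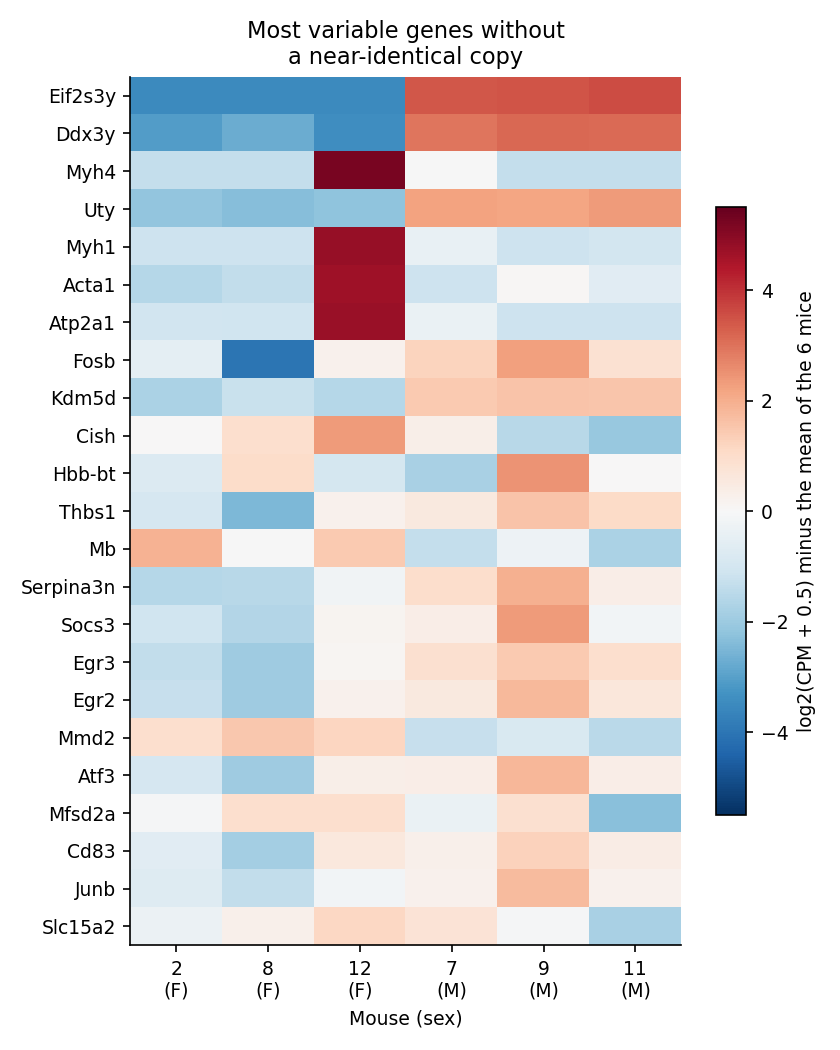
The levels of 23 of the 25 genes with an SD above 1 and no near-identical copy (rows) in the 6 WT saline mice (columns, females left, males right). Colour gives log2(CPM + 0.5) minus the gene's mean over the mice, and red marks values above it. Myh4, Myh1, Acta1 and Atp2a1 are red in mouse 12 alone, and Fosb, Egr2, Egr3, Atf3 and Junb are red in mouse 9 and blue in mouse 8.

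Most of the 25 genes fell into blocks that followed sex or were most marked in 1 or 2 mice. The 4 Y-linked genes followed sex. The fast muscle genes followed mouse 12: Myh4, a myosin heavy chain gene, had 46.0 CPM there and 0 to 0.711 in the others, Myh1 30.3 against 0 to 0.323, Acta1, skeletal actin, 41.4 against 0.0602 to 1.22, and the calcium pump gene Atp2a1 41 against 0.203 to 0.711. The light chain gene Myl1 was no part of this block, with 50.4 to 82.8 CPM in all 6 mice. Myoglobin, Mb, had 31.7 CPM in mouse 2 and 22.6 in mouse 12 but 2.11 to 8.05 in the others. All 3 females lay above all 3 males in Mb, as the sexes did not overlap in 14.1% of all genes tested. Its log2 difference, female minus male, was 2.44 (adjusted p = 0.178, edgeR). In a fit to all 24 libraries it was 1.94 in wild-type DCZ mice, 3.96 in Th-Cre saline mice and 2.30 in Th-Cre DCZ mice. Of these groups Th-Cre saline mice alone passed the threshold (adjusted p = 0.0269, edgeR). The haemoglobin gene Hbb-bt had 79.5 CPM in mouse 9, 29.1 in mouse 8 and 3.75 to 14.4 in the others. Its relatives Hbb-bs, Hba-a1 and Hba-a2 had the same order of mice at the top, with Hbb-bs at 491 CPM in mouse 9 and 203 in mouse 8.

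Immediate early genes, which cells transcribe within minutes of a stimulus without new protein, formed the largest block. Their 28 members summed to 0.0701% of counts in mouse 2, 0.121% in mouse 7, 0.0790% in mouse 8, 0.231% in mouse 9, 0.130% in mouse 11 and 0.106% in mouse 12. Of the 24 at 5 CPM or more, 21 were highest in mouse 9, where 18.5% of all genes were highest, while 11 were lowest in mouse 2 and 12 in mouse 8, where 25.7% and 16.2% of all genes were lowest. Fosb, which joins Jun proteins in the dimer AP-1, had 46.9 CPM in mouse 2, 163 in mouse 7, 3.80 in mouse 8, 335 in mouse 9, 122.5 in mouse 11 and 80.4 in mouse 12. Its partner gene Junb had 133 CPM in mouse 9 and 15.0 to 46.0 in the others, and Atf3, a stress-induced repressor, 28.5 against 1.64 to 10.2. The zinc finger genes Egr2 and Egr3 had 17.9 and 12.7 CPM in mouse 9 and 0.894 and 0.745 in mouse 8. Egr1 had 263 CPM in mouse 9 and 67.4 to 117 in the others, Nr4a1, an orphan nuclear receptor gene, 212 in mouse 9 and 148 in mouse 11, and Fos 110 in mouse 9 and 21.7 to 51.1. The block was not uniform: the phosphatase gene Dusp1 was highest in mouse 8 at 112 CPM with an SD of 0.24, and Ier3 was highest in mouse 12 at 39.8.

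Genes outside that list showed the same extremes. Socs3, which limits cytokine signalling, had 50.3 CPM in mouse 9, 2.76 in mouse 8 and 4.15 to 12.5 in the others. Thbs1, thrombospondin, had 30.8 CPM in mouse 9 and 1.42 in mouse 8. Serpina3n, a protease inhibitor gene, and Cd83, an immune cell surface protein gene, were also highest in mouse 9, with SDs of 1.38 and 1.10. The endothelial junction gene Cldn5, which fell just short of the SD threshold with 0.92, had 133 CPM in mouse 9, 27.8 in mouse 2 and 30.9 in mouse 8. Mouse 9 was also the mouse with the most haemoglobin mRNA, and the part of blood or of handling in these values was not tested.

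Promoters were read for the immediate early genes because most of them moved together. RefSeq promoters on GRCm38.p6 matched 23 of the 28. The cAMP response element core TGACG, searched on both strands, lay within the 250 bases before a start of 15 of the 23 genes, or 65.2%, against 19.8% of all 26994 genes in the same windows. Its full palindrome TGACGTCA, which contains the core, was found for 4, or 17.4%, against 1.77%. Dusp1, highest in mouse 8, was 1 of these 4. Other motifs searched in the same windows were the E-box CACGTG (26.1% against 6.86%), the CArG box (8.7% against 1.63%) and the TATA box (17.4% against 14.3%). Heat shock element letters were at 8.7% against 7.72% and AP-1 letters at 4.35% against 7.82%. Genes with several annotated starts were counted once if any window held the letters. The windows of the 3 genes with an SD above 1 and a single start are printed with the core in capitals, from the base 250 before the start to the base before it, with Fosb at chr7:19310046-19310295, Junb at chr8:84978749-84978998 and Atf3 at chr1:191183334-191183583, all on the minus strand.
Fosb: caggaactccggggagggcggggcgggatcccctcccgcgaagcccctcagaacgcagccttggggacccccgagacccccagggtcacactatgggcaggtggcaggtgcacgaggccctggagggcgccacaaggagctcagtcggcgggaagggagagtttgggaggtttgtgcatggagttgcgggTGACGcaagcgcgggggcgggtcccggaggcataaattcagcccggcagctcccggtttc
Junb: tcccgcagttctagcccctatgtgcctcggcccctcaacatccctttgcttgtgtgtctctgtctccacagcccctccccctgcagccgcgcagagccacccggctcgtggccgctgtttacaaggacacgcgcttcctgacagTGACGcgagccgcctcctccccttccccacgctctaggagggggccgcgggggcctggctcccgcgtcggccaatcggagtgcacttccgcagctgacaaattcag
Atf3: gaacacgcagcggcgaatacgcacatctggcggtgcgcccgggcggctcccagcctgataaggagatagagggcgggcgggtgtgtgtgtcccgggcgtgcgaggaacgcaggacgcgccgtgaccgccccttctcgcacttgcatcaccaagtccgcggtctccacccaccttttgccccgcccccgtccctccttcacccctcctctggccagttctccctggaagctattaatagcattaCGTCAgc
Each window held the core once, beginning at position -60 in Fosb, -106 in Junb and -7 in Atf3, counted back from the start, where it reads CGTCA because it lies on the other strand. A match of letters is a description, not a binding site.

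A few variable genes belonged to no block. Slc15a2, a peptide transporter gene, was highest in mouse 12 and lowest in mouse 11, with the SD nearest the threshold, 1.03. Cish, another brake on cytokine signalling, had 151 CPM in mouse 12, 56.6 in mouse 8 and 6.70 in mouse 11. Mfsd2a, a lysophospholipid transporter gene, had 2.64 CPM in mouse 11 and 11.2 to 28.7 in the others. The paired chaperone genes Hspa1a and Hspa1b, near-identical to each other, were highest in mouse 12, at 37.7 and 36.0 CPM.

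The 3 groups not used for the ranking gave the same measure anew. Of the 25 genes, 13 had an SD above 1 in wild-type mice given DCZ, 15 in Th-Cre mice given saline and 15 in Th-Cre mice given DCZ, where 36, 35 and 46 of all genes did. Their median SD was 1.04, 1.28 and 1.26 in these groups, against 0.17, 0.14 and 0.16 for all genes. Genes past 1 in all 4 groups included the Y-linked Eif2s3y, Ddx3y, Uty and Kdm5d, and Cish, Mb, Mmd2 and Mfsd2a. Fosb had 1.78, 1.28 and 0.87, and Thbs1 0.96, 0.44 and 0.23. Myh4 had 0.59 in wild-type mice given DCZ but 4.42 and 3.41 in the Th-Cre groups. Both DCZ groups were treated, so their spread is not that of resting tissue.

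Sex is the labelled difference within the group, and 13 of 12676 genes tested (0.103%) differed between the 3 females and 3 males at a Benjamini-Hochberg adjusted p under 0.05 in edgeR's quasi-likelihood fit. Of these 7 were higher in females (0.0552%) and 6 in males (0.0473%). An unadjusted p under 0.05 was reached by 1070. The number of calls depended on the method: 38 without mouse 2, 98 with DESeq2, 153 with no filter on low counts and 20 in a fit to all 24 libraries. Of the 13, 4 lie on the Y chromosome. Eif2s3y had 58.8 to 67.4 CPM in males and no read in females, Ddx3y 40.2 to 47.0 against 0 to 0.298, Uty 11 to 12.4 against 0 to 0.0602, and Kdm5d 14.2 to 15.7 against 1.14 to 1.86.

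The other 9 are autosomal. Mmd2, a gene of the progestin and adipoQ receptor family (chromosome 5, 142562358 to 142608800), had 46.0, 67.5 and 56.1 CPM in the females and 9.89, 13.4 and 8.23 in the males. Its log2 difference, female minus male, was 2.43 ± 0.197 (SE; adjusted p = 0.000484, edgeR). Bmp8b, a bone morphogenetic protein known to act in brown fat (chromosome 4, 123105165 to 123132099), had 4.57, 5.66 and 4.80 CPM in the females and 0, 0.135 and 0.158 in the males. Its fitted difference of 5.52 ± 0.478 (SE; adjusted p = 0.000641, edgeR) rests on very few male reads. Elovl3 (chromosome 19, 46131897 to 46135694) averaged 122 CPM in females and 53.9 in males, a difference of 1.18 ± 0.157 (SE; adjusted p = 0.0194, edgeR). Adam12, a membrane metalloprotease gene, averaged 85.1 CPM against 42.8, a difference of 0.99, and Igfbp3, which binds insulin-like growth factors, 23.2 against 12.6, a difference of 0.88. The call of Igfbp3 (adjusted p = 0.046, edgeR) was lost in 10 of 14 alternatives. That of Elovl3 was lost without mouse 7, 8 or 11 (adjusted p = 0.156, 0.146 and 0.106, edgeR), that of Adam12 without mouse 7 (adjusted p = 0.0805) and that of Cxcl14 without mouse 7 or 11 (adjusted p = 0.0646 and 0.0653). The complement gene C4b was lower in females, at 7.42 CPM against 22.3 and a difference of -1.58 ± 0.135 (SE; adjusted p = 0.000626, edgeR), and so was the chemokine gene Cxcl14, at 10.1 against 22.3 and -1.15. Mup22 (44.2 CPM against 3.15) and Mup18 (5.47 against 0.245) are major urinary protein genes of a family with near-identical members, so their counts are uncertain. The sexes did not overlap in any of the 13, where they did not overlap in 14.1% of all genes tested.

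**Figure D5:**
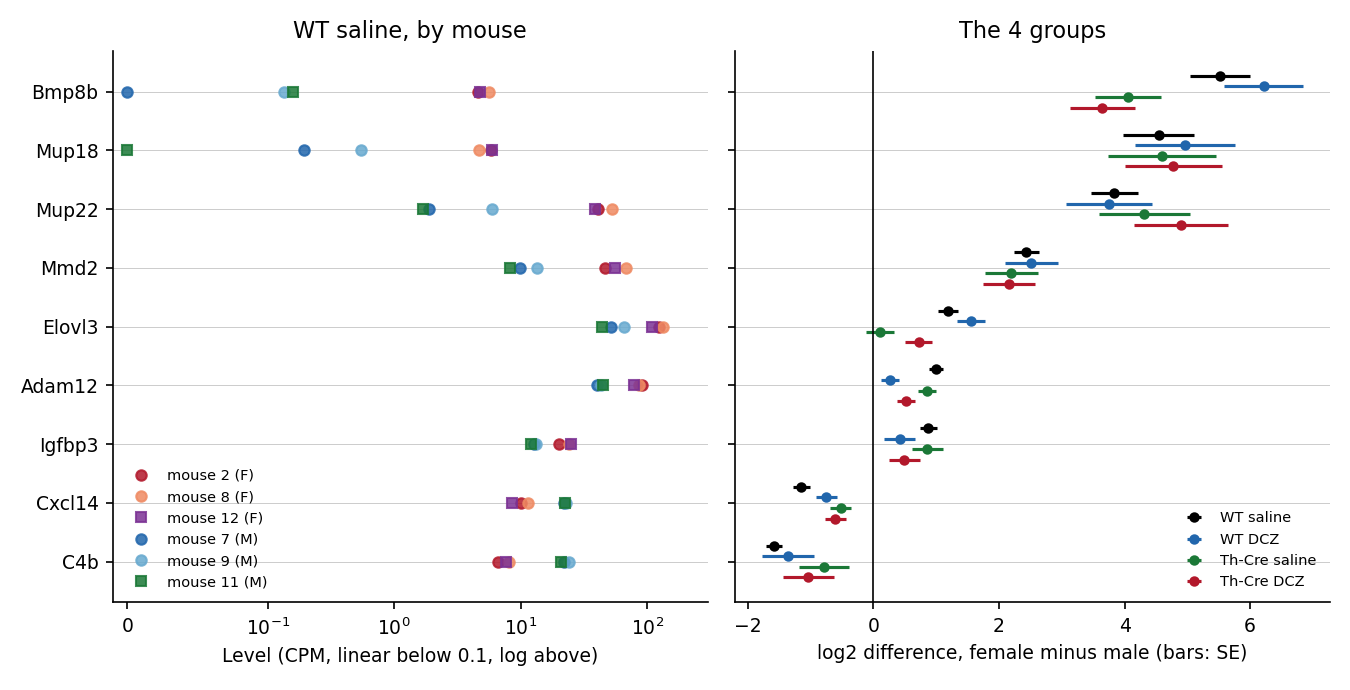
Left, level of the 9 autosomal genes in each WT saline mouse (x axis, CPM, linear below 0.1 and log above). Right, log2 difference, female minus male, with its SE in each of the 4 groups, WT saline from its own 6 libraries and the others from a fit to all 24. Bmp8b, Mup18, Mup22 and Mmd2 lie to the right of 0 in every group, whereas Elovl3 lies near 0 in Th-Cre saline mice.

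In the other 3 groups all 9 autosomal differences had the same sign. Mmd2, Bmp8b, Mup22 and Mup18 passed the threshold in each of them, with log2 differences for Mmd2 of 2.52, 2.20 and 2.16 in wild-type mice given DCZ, then Th-Cre mice given saline, then Th-Cre mice given DCZ, and for Bmp8b of 6.21, 4.05 and 3.65. Elovl3 had 1.55, 0.10 and 0.72 and passed in wild-type DCZ mice (adjusted p = 0.00112, edgeR). Adam12 had 0.26, 0.85 and 0.51 and passed in Th-Cre saline mice. C4b, Cxcl14 and Igfbp3 passed in none of the 3. The values of these 3 groups come from a fit to all 24 libraries. In that fit C4b and Igfbp3 did not pass in resting wild-type mice either (adjusted p = 0.146 and 0.174, edgeR). Cxcl14 did pass there (adjusted p = 0.00195, edgeR). The sex difference in resting wild-type mice was not shown to differ from the mean of the other groups for any of the 13 genes (adjusted p = 0.99993, edgeR).

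Of the 14 thermogenic effectors Elovl3 alone passed the test. Ucp1 averaged 5289 CPM in females and 4264 in males, a log2 difference of 0.31 ± 0.139 (SE; adjusted p = 0.587, edgeR), and Cidea 1511 against 1744, a difference of -0.21 ± 0.107 (SE; adjusted p = 0.647, edgeR). In both the sexes did not overlap, as was so in 14.1% of all genes tested. No gene of oxidative phosphorylation, fatty acid synthesis, fatty acid oxidation or the citrate cycle passed, where 0.103% of all genes tested did. At so small a share, no call in lists of this size does not show that they lack a sex difference. The immediate early list had 2 of 27 tested members higher in females, where 6578 of all 12676 genes tested were. Its median log2 difference was -1.04, against 0.01 over all genes, with none past the threshold. Most members moved together between mice, so they do not count as separate observations. Fosb averaged 206.8 CPM in males and 43.7 in females (adjusted p = 0.414, edgeR). Its lowest male value, 122.5, lay above its highest female value, 80.4, and mouse 9, which had most of these mRNAs, is a male.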

How the data were processed

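The authors' table gives estimated counts, rounded to whole numbers, for each gene symbol in 24 libraries. The submitters' processing notes name kallisto 0.44.0 and GRCm38.p6. Which transcripts were used, how they were summed and whether strand entered is not given in the sources used here. Normalized signal that the authors deposited for the wild-type libraries, counts divided by a size factor per library, served as an alternative only. Between 84.2 and 88.2 percent of reads were pseudoaligned per the deposited alignment table.

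Shares are percent of a library's gene counts. CPM uses edgeR 4.0.16 TMM library sizes. The spread is the SD of log2(CPM + 0.5) for genes at a mean of 5 CPM or more. Sex was tested with edgeR's quasi-likelihood fit (R 4.3.3) on the 6 libraries after filterByExpr (minimum count 10), which left 12676 genes, with Benjamini-Hochberg adjustment. The script was tested on simulated data. Lengths are GENCODE M21 principal transcripts, and 99.6% of symbols matched. Copies were found with blastn 2.17.0. Coordinates are 1-based on GRCm38. Counting error of a list's share was at most 0.0264 percentage points (95% interval). Alternatives were other scalings, filters and pseudocounts, DESeq2 1.42.0, limma-voom (limma 3.58.1), a fit to all 24 libraries and leaving out each mouse.

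The members, gene lists and rules for naming genes (the most abundant overall and per list, the most and least variable, and those past the sex threshold) were chosen with earlier results of these data known. Markers that the text sets beside a result were named after their values were seen. The counts are of 1 library per mouse, so p-values measure the spread between mice. A few genes are not reported here and are not named in the figures, though counts and shares over lists include them.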

Additional observations from a re-analysis of the deposited data

Results flagged for a closer look

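Of 190 levels and shares tested, 32 had a mouse whose gap to the nearest of the other 5 exceeded Dixon's 95% critical value for 6 samples. Chance flags about 1 in 20 groups, but many of these genes were named because they varied most between the same mice, so the 2 rates cannot be compared. The causes were not tested.

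Mouse 12 stood apart in the muscle marker share (0.0407%) and in the muscle genes Myh4 (46.0 CPM), Acta1 (41.4), Atp2a1 (41), Myh1 (30.3) and Ckm (27.6). It was also high in mt-Co2 at 58307 CPM, in Cish at 151, in Ier3 at 39.8 and in the chaperone genes Hspa1a at 37.7 and Hspa1b at 36.0. Gapdh was low there, at 2338 CPM against 2462 to 2535.

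Mouse 9 stood apart in the immediate early share (0.231%) and in Egr1 (263 CPM), Junb (133), Fos (110.1), Socs3 (50.3) and Atf3 (28.5). Its haemoglobin genes Hba-a1 and Hbb-bt had 249.7 and 79.5 CPM against at most 89.5 and 29.1. Fam177a, which overlaps another gene, had 0 CPM there against 28.0 to 38.8.

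Mouse 2, whose levels moved with transcript length, was high in mt-Nd5 at 15847 CPM and mt-Nd4l at 2987. It was also high in Pck1 at 4158, in the fatty acid oxidation genes Hadhb at 3456 and Acadl at 2402, in Elovl6 at 752, in Otop1 at 231 and in Eif4a-ps4 at 24.6. It was low in Fth1 at 1486 CPM and Dbi at 1037. In mouse 8 Laptm4a was lowest at 181 CPM against 186 to 189.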

How the results depend on the processing

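Of the 13 genes called by sex, with 9 left when Y-linked genes were not counted, other scalings, the filter at 5 CPM and limma-voom gave 10 to 13. Without a filter 153 were called, with DESeq2 98 and in the fit to all 24 libraries 20, and the cause was not tested. Leaving out 1 mouse gave 9 to 38, the 38 without mouse 2. Each gene kept its direction under every alternative that gave it a value, which was 14 alternatives, or 13 for Bmp8b and Mup18, which fell below the filter at 5 CPM. Igfbp3 lost its call in 10 of 14 of them, Mup18 in 4, Elovl3 in 3, Cxcl14 in 2, and Adam12 and C4b in 1 each. No paired analysis was possible because no label links a male to a female.

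Per length, the top 10 genes took 56.3%, mitochondrial mRNAs 53.2%, nuclear oxidative phosphorylation 6.06% and ribosomal proteins 1.81%, and 8 genes held 50%. On nuclear counts alone these were 13.6% for the top 10, 7.0% and 1.75%, with 418 genes holding 50%; this keeps the nuclear copies, which add to 40.1% with the mitochondrial mRNAs. Leaving out 1 mouse gave 38.4 to 39.6% for the top 10, 36.7 to 37.7% for mitochondrial mRNAs, 4.34 to 4.46% and 1.07 to 1.14% for the last 2 lists, and 40 to 45 genes. The 43 genes with an SD above 1 became 93 at a mean of at least 1 CPM, 13 at 20 CPM, 118 with no filter, 22 by a coefficient of variation above 100% and 25 without near-identical copies. Without 1 mouse there were 33 (without mouse 9) to 45. At the depth of these libraries genes below 0.228 CPM could not be told from absent.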

Other observations

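Interferon-inducible genes took 0.129% of counts ± 0.0129 (SD, n = 6), and 12 of the 14 at 5 CPM or more were highest in mouse 11, where 9.37% of all genes were. Antigen presentation genes took 0.133% ± 0.0266, from 0.0894% in mouse 2 to 0.156% in mouse 11. Of 12 genes 10 were lowest in mouse 2, the library whose levels moved with transcript length, where 25.7% of all genes were lowest. Circadian clock genes took 0.0965% ± 0.00943, heat shock genes 0.343% ± 0.0348 and genes of cholesterol synthesis 0.0755% ± 0.00940. Markers of T and NK cells summed to 0.000474% of counts, of mast cells to 0.00125% and of neutrophils to 0.000144%.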
